A study of Homo sapiens with 6 samples.

Results

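The DNA replication machinery was examined as 45 member genes of the 58174 genes in the deposited table. The members were chosen by their function, with earlier results of these data known. They comprised 18 licensing and helicase genes, 18 polymerase and fork genes, 4 nucleotide supply genes, and 5 genes for E2F factors and cyclin E. SiHa is an established HPV-positive human line of cervical squamous carcinoma. These cells received GV230-BRCA1, a BRCA1 overexpression plasmid, in the 3 samples of the OV-BRCA1 group and GV230 alone in the 3 samples of the NC group, and RNA was taken 48 h later. Both groups received Lipofectamine 3000 and the same medium, so the groups differed by the BRCA1 insert. The model was a single tumor line with transient transfection, and the study describes the 3 samples of a group as biological replicates, without saying whether they came from separate cultures or transfections. The p-values below therefore measure the spread between these samples.

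DNA replication is licensed in G1, when the origin recognition complex, CDC6 and CDT1 load the MCM helicase onto DNA, and it fires in S phase, when CDC45 and the GINS complex join the helicase. DNA polymerases, the sliding clamp PCNA and its loader RFC then copy the strands, while RPA covers single-stranded DNA. E2F factors with a DP partner bind promoters of these genes and raise or lower their transcription around the G1/S transition, and proliferating tumor cells transcribe them actively.

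The E2F motif was looked for in the promoters of the members because it is the element these genes are known for. The letters searched were TTTCCCGC, TTTCGCGC, TTTGCCGC and TTTGGCGC on both strands, in RefSeq promoters (GRCh38.p14) from 250 bases before to 50 bases after the gene start. Matches on opposite strands can overlap, and in the MCM6 promoter TTTGGCGC shares 4 letters with the reverse complement of TTTCGCGC. A promoter was found for 38 of the 45 members, and 20 of these 38 (52.6%) held the motif, against 5.5% of the 10222 promoters of genes tested and 3.3% of all 27305 promoters. Of the members whose mRNA was higher in the OV-BRCA1 group, 5 of 8 with a promoter held it, and of those that were lower, 7 of 8 did. The windows of these 12 members are printed because they show the same letters in genes that moved in opposite directions. Capitals mark the E2F letters. A further match of MCM7, which begins at position -187 from its start, lies outside the stretch shown. The stretches read 5′ to 3′ on the gene's strand, lie mostly upstream of the start and reach at most 30 bases past it. The members that were higher were the following.
MCM7, chr7:100101374-100101431 (- strand): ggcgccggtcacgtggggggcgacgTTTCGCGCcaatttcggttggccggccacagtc
CDC6, chr17:40287861-40287908 (+ strand): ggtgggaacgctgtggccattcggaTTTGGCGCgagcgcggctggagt
DTL, chr1:212035715-212035772 (+ strand): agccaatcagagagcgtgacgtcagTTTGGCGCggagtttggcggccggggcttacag
GINS3, chr16:58392441-58392498 (+ strand): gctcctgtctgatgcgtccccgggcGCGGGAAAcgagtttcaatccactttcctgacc
RFC3, chr13:33818069-33818126 (+ strand): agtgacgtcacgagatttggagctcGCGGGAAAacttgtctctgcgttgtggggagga
The members that were lower were the following.
MCM6, chr2:135876497-135876620 (- strand): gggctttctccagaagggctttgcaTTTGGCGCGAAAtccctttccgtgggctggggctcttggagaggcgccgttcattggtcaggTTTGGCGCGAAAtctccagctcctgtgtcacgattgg
CDT1, chr16:88803729-88803786 (+ strand): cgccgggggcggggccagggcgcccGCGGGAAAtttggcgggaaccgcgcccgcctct
PCNA, chr20:5126649-5126706 (- strand): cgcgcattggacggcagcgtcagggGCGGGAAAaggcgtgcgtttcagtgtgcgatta
POLE, chr12:132687328-132687385 (- strand): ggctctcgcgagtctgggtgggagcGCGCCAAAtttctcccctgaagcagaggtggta
TYMS, chr18:657589-657646 (+ strand): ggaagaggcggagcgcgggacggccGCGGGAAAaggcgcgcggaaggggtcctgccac
E2F1, chr20:33686373-33686443 (- strand): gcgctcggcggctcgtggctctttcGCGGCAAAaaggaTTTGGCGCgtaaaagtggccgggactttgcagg
E2F2, chr1:23531243-23531300 (- strand): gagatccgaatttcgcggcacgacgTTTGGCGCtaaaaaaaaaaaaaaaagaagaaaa
A match in these windows is a description of letters and not a binding site. Of the 27 matches in member promoters, 20 began between 60 bases before and 10 bases after the start. Among members that did not pass the test the motif stood in 8 of 22 promoters (36.4%). By role it stood in 66.7% of licensing and helicase promoters, 43.8% of polymerase and fork promoters, 25% of nucleotide supply promoters, and 66.7% of the promoters of E2F factors and cyclin E.

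The values used were the authors' FPKM (fragment counts scaled for transcript length and sequencing depth), listed per transcript and summed here per gene. The estimated depth was 14.18 to 16.58 M fragments per OV-BRCA1 sample and 16.02 to 19.98 M per NC sample, and the member with the fewest estimated fragments, E2F8, had 89 in its lowest sample. Log2 expression correlated at 0.985 to 0.986 within groups and 0.951 to 0.955 between groups. Mitochondrial genes took 14.84% to 17.25% of the summed FPKM in the OV-BRCA1 group and 21.0% to 23.2% in the NC group, and after nuclear protein-coding scaling 7 members were higher and 11 were lower. KRT7, KRT8, KRT18, KRT17 and SFN were abundant in every sample. The epithelial markers KRT19 and CDH1 and the squamous markers TP63 and KRT5 were below an FPKM of 1, and KRT6A reached 1.19 at most. Some of these markers differed between the groups. EPCAM was higher in the OV-BRCA1 group, at 6.79, 7.65 and 5.93 against 2.11, 3.01 and 2.65 (log2 fold change 1.12, limma adjusted p = 0.00142), and KRT6A (0.84), KRT18 (0.39) and KRT8 (0.20) were higher and KRT17 (-0.48) was lower. The part of these markers in the results was not tested. Of the 9 leukocyte, endothelial and fibroblast markers, PTPRC, VWF and LUM were listed at 0 in all samples, and the highest value was 1.45 for PECAM1.

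BRCA1, the transfected gene (chr17:43044295-43170245, GRCh38), had FPKM values of 35.7, 40.8 and 34.9 in the OV-BRCA1 group and 20.1, 14.9 and 21.7 in the NC group. The groups did not overlap, and the log2 fold change was 0.95 (SE 0.14, limma with Benjamini-Hochberg adjusted p = 0.00373). Reads from the plasmid and from the cell's own gene cannot be told apart in these values.

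The question for the members was whether mRNA of the replication machinery differed between the OV-BRCA1 and NC groups. For some members it did, in both directions and by small amounts. Of the 45 members, all of which passed the filter of an FPKM of at least 0.5 in 3 samples, 10 were upregulated and 11 were downregulated at an adjusted p below 0.05 (limma on log2(FPKM + 1)). That is 46.7% of the members, beside 35.3% of the 16321 genes tested, with 16.4% of genes tested higher and 18.9% lower. In this limma fit to summed FPKM, none of the members met the cut-offs of the study's criterion for a DEG. These were an absolute log2 fold change above 1 with an adjusted p below 0.05, which 3.99% of genes tested met. The study applied them with the DESeq package, so its own list of DEGs can differ from these calls. With an unadjusted limma p below 0.05 the count past this fold change was 0 as well, while 10 members were higher and 11 were lower. The log2 fold changes of the members ran from -0.69 for E2F2 to 0.69 for DTL with a median of 0.03, against a median of -0.04 and a middle range of -0.29 to 0.22 for all genes tested. Groups did not overlap for 26 members, and they did not overlap for 50.8% of genes tested. Fewer cells in S phase and less mRNA per cell cannot be told apart in these bulk samples.

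**Figure D1:**
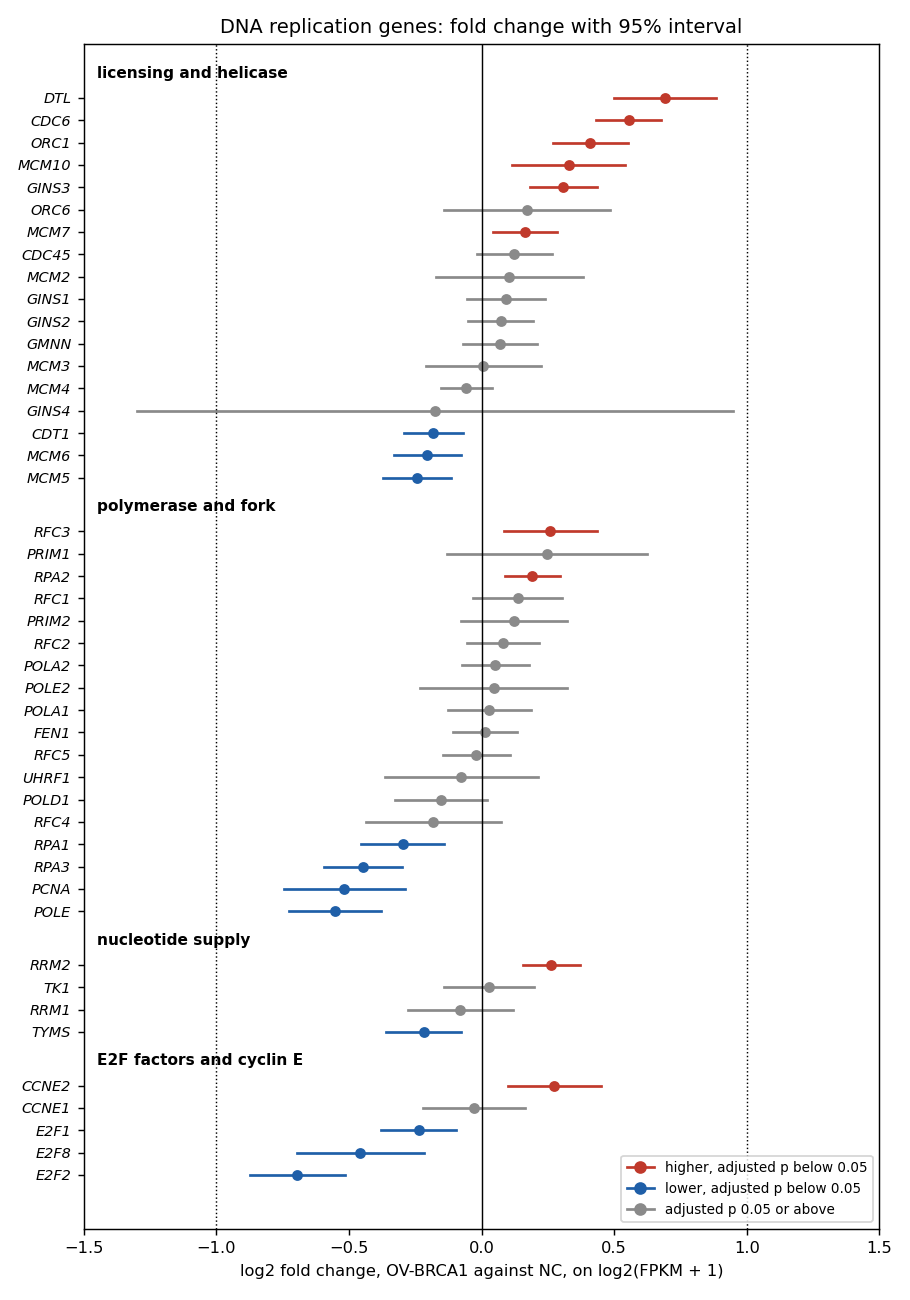
Log2 fold change of each of the 45 members (OV-BRCA1 against NC, n = 3 per group, on log2(FPKM + 1)), arranged by role, with points for the estimate and bars for the 95% interval. Red and blue mark the 10 higher and 11 lower members, and every estimate lies inside the dotted lines at a log2 fold change of -1 and 1.

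Of the 18 licensing and helicase genes, 6 were upregulated and 3 were downregulated, with a median log2 fold change of 0.10. DTL, CDC6 and ORC1 rose by 0.41 to 0.69 on the log2 scale, CDT1 was lower, and the MCM2 to MCM7 subunits that passed the test moved in opposite directions by less than 0.25. CDC6, which recruits the helicase to the origin recognition complex (chr17:40287633-40304657), had FPKM values of 39.9, 37.3 and 39.0 in the OV-BRCA1 group and 26.5, 26.0 and 25.6 in the NC group. The groups were separated by a wide margin, with a ratio of means of 1.49 and a log2 fold change of 0.55 (SE 0.05, limma adjusted p = 5.24e-04). ORC1, the largest subunit of the origin recognition complex, had values of 18.2, 16.9 and 17.9 against 13.1, 12.8 and 13.3. The log2 fold change of ORC1 was 0.41 (SE 0.06, limma adjusted p = 0.00302), and the groups did not overlap. ORC6, another subunit of this complex, overlapped between groups and did not pass the test (log2 fold change 0.17, limma adjusted p = 0.346).

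DTL, the receptor subunit of the ubiquitin ligase that removes CDT1 in S phase (chr1:212035553-212107400), had the highest fold change of the 45 members when FPKM was summed per gene. With transcripts summed by length it came after CDC6 (0.58 against 0.59), and with its leading transcript alone it turned to -1.19 without passing the test. Its FPKM was 27.7, 25.9 and 24.8 in the OV-BRCA1 group and 17.4, 14.8 and 15.3 in the NC group. The lowest OV-BRCA1 sample exceeded the highest NC sample, and the log2 fold change was 0.69 (SE 0.08, limma adjusted p = 0.00134). CDT1 itself, which loads the MCM complex, had values of 40.3, 39.2 and 38.2 against 45.2, 43.8 and 44.8 and was lower by a small amount (log2 fold change -0.18, limma adjusted p = 0.0264), a call kept in 1 of the 6 fits that left out a sample. The mRNA of geminin, the inhibitor of CDT1 encoded by GMNN, overlapped between groups (0.07, 95% interval -0.07 to 0.21). In 2 of the 3 OV-BRCA1 samples most of the DTL sum came from a processed transcript.

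Of the 6 MCM2 to MCM7 subunits, which form a ring with a single copy of each, MCM5 and MCM6 were downregulated, MCM7 was upregulated and MCM2, MCM3 and MCM4 did not pass the test. MCM5 had FPKM values of 80.8, 73.2 and 74.6 in the OV-BRCA1 group and 92.1, 88.6 and 90.4 in the NC group. These groups did not overlap, and the log2 fold change was -0.24 (SE 0.05, limma adjusted p = 0.0144). MCM6 had values of 28.2, 27.3 and 29.6 against 32.3, 33.4 and 32.8 (log2 fold change -0.20, limma adjusted p = 0.0258). MCM7 rose by 0.16 (limma adjusted p = 0.0438), with values of 96.5, 92.7 and 93.8 against 87.3, 80.1 and 85.0. Protein coding transcripts held 18.95% to 34.08% of its sum per sample, and the leading transcript MCM7-209 is a retained intron transcript with values of 64.0, 58.9 and 68.8 against 54.0, 48.3 and 52.5 (limma adjusted p = 0.113). The protein coding MCM7-201 had values of 24.8, 25.7 and 16.2 against 25.7, 25.6 and 25.7, lower in OV-BRCA1 sample 3 alone by more than 1 FPKM. The groups of MCM6 and of MCM7 did not overlap, but MCM6 kept its call in 1 and MCM7 in 0 of the 6 fits that left out a sample. MCM3 had values of 41.5, 48.1 and 42.2 against 47.9, 39.8 and 43.8, which overlap fully, and the largest adjusted p of its role (0.969 by limma).

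Among the proteins that complete the helicase, GINS3 was upregulated from 22.0, 22.1 and 21.4 to 28.1, 27.5 and 26.2 FPKM (log2 fold change 0.31, SE 0.05, limma adjusted p = 0.00593). The other GINS subunits did not pass the test, with log2 fold changes of 0.09 for GINS1, 0.07 for GINS2 and -0.18 for GINS4. MCM10, which helps the loaded helicase open DNA, rose by 0.33 (limma adjusted p = 0.0304), with values of 10.2, 12.1 and 11.9 against 9.42, 8.35 and 8.79, and kept its call in 2 of the 6 fits that left out a sample. CDC45 had values of 37.8, 37.2 and 37.4 in the OV-BRCA1 group and 33.3, 33.0 and 36.9 in the NC group. NC sample 3 lay close to the OV-BRCA1 samples and the other NC samples lay lower, and CDC45 did not pass the test (log2 fold change 0.12, limma adjusted p = 0.154).

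Of the 18 polymerase and fork genes, 2 were upregulated and 4 were downregulated, with a median log2 fold change of 0.02. The clamp PCNA, the catalytic subunit of the leading strand polymerase and the RPA subunits RPA1 and RPA3 were lower in the OV-BRCA1 group. PCNA, which tethers polymerases to DNA (chr20:5114953-5126626), had FPKM values of 106, 103 and 131 in the OV-BRCA1 group and 163, 158 and 166 in the NC group. OV-BRCA1 sample 3 was the highest of its group and still below every NC sample, and the log2 fold change was -0.52 (SE 0.09, limma adjusted p = 0.00762). POLE, the catalytic subunit of DNA polymerase epsilon (chr12:132623753-132687365), had values of 21.7, 20.6 and 18.5 against 30.9, 28.8 and 30.6. The groups of POLE were well apart, with a log2 fold change of -0.55 (SE 0.07, limma adjusted p = 0.00215). Its partner subunit gene POLE2 overlapped between groups (0.05, 95% interval -0.23 to 0.32). The leading transcript of POLE2, the protein coding POLE2-201, had values of 6.13, 6.45 and 5.71 against 3.64, 3.99 and 3.06. Its groups did not overlap, and its log2 fold change was 0.64 (adjusted p = 0.0535 by limma over transcripts).

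RPA is a trimer, and its subunits did not move together. RPA3 had FPKM values of 16.8, 18.4 and 17.8 in the OV-BRCA1 group and 23.6, 24.5 and 25.2 in the NC group (log2 fold change -0.45, SE 0.06, limma adjusted p = 0.00247). RPA1, the subunit with most of the DNA-binding surface, had values of 31.7, 28.5 and 27.6 against 35.9, 36.3 and 36.3 (log2 fold change -0.30, limma adjusted p = 0.0143). RPA2, the subunit phosphorylated in response to replication stress, had values of 66.1, 67.3 and 65.8 against 58.9, 58.6 and 56.4 (log2 fold change 0.19, limma adjusted p = 0.0166). None of the 3 genes overlapped between groups, and RPA1 and RPA3 were lower while RPA2 was higher. RPA1 lost its call (limma adjusted p = 0.116, log2 fold change -0.29) when the transcripts were summed by length. RPA2 lost its call with replicate number as a block (limma adjusted p = 0.0525) and without NC sample 3 (limma adjusted p = 0.0543).

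RFC3, a subunit of the clamp loader, rose from 22.2, 25.4 and 23.4 to 28.2, 30.2 and 27.1 FPKM (log2 fold change 0.26, limma adjusted p = 0.0341). The call of RFC3 was kept in 2 of the 6 fits that left out a sample and lost with nuclear protein-coding scaling (limma adjusted p = 0.0673). RFC1, RFC2, RFC4 and RFC5 did not pass the test, with log2 fold changes between -0.18 and 0.14. The primase and polymerase alpha genes POLA1, POLA2, PRIM1 and PRIM2, which start each strand, also did not pass, with log2 fold changes between 0.03 and 0.25. POLD1, the catalytic subunit of the lagging strand polymerase, had a log2 fold change of -0.15 (limma adjusted p = 0.143), which passed the test when transcripts were summed by length (-0.19, limma adjusted p = 0.0344). FEN1, the flap endonuclease of Okazaki fragment processing, had values of 50.3, 48.8 and 49.97 against 48.6, 47.6 and 51.7, with a 95% interval of -0.11 to 0.13. UHRF1, which binds hemimethylated DNA behind the fork, had a log2 fold change of -0.08 with an interval of -0.37 to 0.21.

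**Figure D2:**
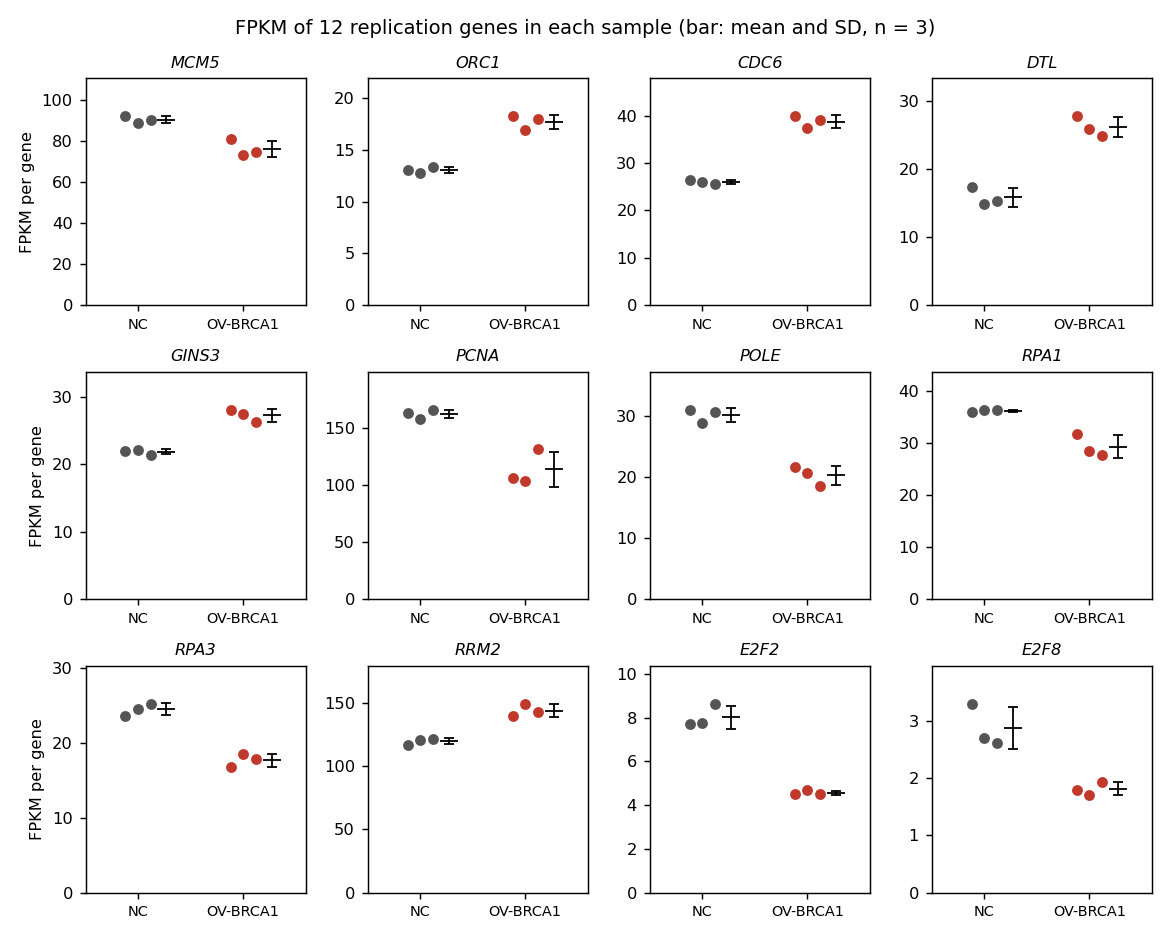
FPKM per gene in each sample for the 12 members called in every fit that left out a sample, with NC samples in grey, OV-BRCA1 samples in red, and the mean and SD (n = 3) beside them. MCM5, PCNA, POLE, RPA1, RPA3, E2F2 and E2F8 lie lower and ORC1, CDC6, DTL, GINS3 and RRM2 lie higher in the OV-BRCA1 group, and no panel shows an overlap.

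Among the 4 genes of nucleotide supply, 1 was upregulated and 1 was downregulated. RRM2, the S phase subunit of ribonucleotide reductase, had FPKM values of 140, 149 and 143 in the OV-BRCA1 group and 117, 121 and 122 in the NC group. Its lowest OV-BRCA1 sample stood above its highest NC sample, and the log2 fold change was 0.26 (SE 0.04, limma adjusted p = 0.00586). With its leading transcript alone, which held 2.45% to 40.33% of the sum per sample, the value of RRM2 turned to -0.68 and did not pass the test (limma adjusted p = 0.697). RRM1, the large subunit of the same enzyme, did not pass the test (log2 fold change -0.08, 95% interval -0.28 to 0.12). TYMS, which makes thymidylate, had values of 72.5, 71.6 and 75.1 against 81.1, 83.5 and 91.3 (log2 fold change -0.22, limma adjusted p = 0.0293), and it kept this call in 1 of the 6 fits that left out a sample. With its leading transcript alone the log2 fold change of TYMS was -0.04 and the call was lost (limma adjusted p = 0.667). ENOSF1 and TYMSOS overlap TYMS on the opposite strand and were lower as well, with log2 fold changes of -0.53 (limma adjusted p = 8.34e-04) and -1.13 (limma adjusted p = 3.38e-04). The use of strand in counting was not stated, so reads of the 3 genes may not have been separated. TK1, which phosphorylates salvaged thymidine, had values of 66.9, 62.4 and 59.8 against 65.1, 57.2 and 63.5 and did not pass the test (limma adjusted p = 0.796).

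Of the 5 genes for E2F factors and cyclin E, 3 were downregulated and 1 was upregulated. E2F2, an activator of S phase genes (chr1:23506430-23531220), had FPKM values of 4.49, 4.69 and 4.53 in the OV-BRCA1 group and 7.69, 7.75 and 8.63 in the NC group. Its groups were far apart relative to their spread, with a ratio of means of 0.569 and a log2 fold change of -0.69 (SE 0.07, limma adjusted p = 0.00102). E2F1, the other activator in the list, had values of 54.1, 49.4 and 49.0 against 60.6, 57.7 and 61.8 (log2 fold change -0.24, limma adjusted p = 0.0224), and 2 of the 6 fits without a sample kept its call. E2F8, a repressor of E2F targets, had values of 1.80, 1.70 and 1.93 against 3.29, 2.69 and 2.61 (log2 fold change -0.46, SE 0.10, limma adjusted p = 0.0143). At these levels of E2F8 the pseudocount of 1 shrinks the fold change, and its ratio of means was 0.631. The protein coding transcript E2F8-201 had values of 0.01, 0.04 and 1.79 against 1.90, 1.78 and 2.03. In OV-BRCA1 samples 1 and 2 another protein coding transcript, E2F8-205, led instead, with 1.55 and 1.59. The activator genes E2F1 and E2F2 and the repressor gene E2F8 were thus all lower.

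The cyclin E genes encode partners of CDK2 at the G1/S transition. CCNE2 had FPKM values of 14.2, 13.2 and 13.7 in the OV-BRCA1 group and 10.9, 12.1 and 10.5 in the NC group (log2 fold change 0.27, limma adjusted p = 0.0294). The groups of CCNE2 did not overlap, although NC sample 2 came close and the call was kept in 1 of the 6 fits that left out a sample. CCNE1 had values of 26.1, 24.0 and 23.0 against 26.7, 22.8 and 25.3, which overlap (limma adjusted p = 0.799).

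For 22 of the 24 members that did not pass the test, the 95% interval of the log2 fold change lay within 0.5 of 0, so larger differences were outside their intervals. The exceptions were GINS4, with an interval of -1.30 to 0.95, and PRIM1, with an upper bound of 0.62. GINS4 had FPKM values of 9.78, 10.7 and 4.21 in the OV-BRCA1 group and 12.02, 4.30 and 12.7 in the NC group, so each group held a single low sample. Of these 24 members, 5 had groups that did not overlap, which were MCM4, CDC45, GINS1, GINS2 and RFC1. Across all genes tested, groups did not overlap for 50.8% while 35.3% passed the test, so this pattern was not particular to members.

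The summed FPKM of a member can hide a change between its transcripts. Of 212 member transcripts tested, 7 passed at an adjusted p below 0.05 (3.3%, limma over transcripts, 3 higher and 4 lower), beside 5.47% of all transcripts tested. CDC6-201, PCNA-201, POLE-201 and E2F2-201 passed in the direction of their genes. A retained intron transcript, RRM2-209, was higher with its gene (log2 fold change 0.57, limma adjusted p = 0.0426). CDC45-203, a protein coding transcript, had FPKM values of 7.22, 5.11 and 1.81 in the OV-BRCA1 group and 0.06, 0.03 and 0.05 in the NC group (limma adjusted p = 0.0362), while its gene did not pass. RRM1-213, annotated for nonsense-mediated decay, had values of 4.71, 3.02 and 2.71 against 21.3, 23.5 and 18.5. It was lower in every OV-BRCA1 sample, with a log2 fold change of -2.33 (limma adjusted p = 0.00425), and the summed RRM1 value stayed between 53.6 and 64.6 in all samples.

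The transcript with the highest mean was protein coding for 42 members, the exceptions being MCM7, ORC6 and RFC5, and it led in all 6 samples for 28 members. For others the leading transcript differed between replicates. DTL-201, the protein coding transcript, had FPKM values of 2.50, 2.75 and 23.3 in the OV-BRCA1 group and 16.2, 12.9 and 15.0 in the NC group. DTL-203, a processed transcript, held most of the sum in OV-BRCA1 samples 1 and 2, with values of 23.9, 19.3 and 0.09 against 0.01, 0.03 and 0.04. A further protein coding transcript, DTL-206, had 3.18 in OV-BRCA1 sample 2 and at most 0.84 in the other samples. The sum of OV-BRCA1 sample 3, which was led by DTL-201 as in the NC group, was 24.8 and above every NC sum. When transcripts were summed by length, the log2 fold change of DTL was 0.58 (limma adjusted p = 0.00469). MCM3 was led by 3 transcripts, MCM3-205 in OV-BRCA1 sample 1 and NC sample 1, MCM3-201 in OV-BRCA1 sample 2, and MCM3-207 in the other samples. These transcripts are 3169, 3083 and 3208 bases long and all protein coding, and the sum of MCM3 stayed between 39.8 and 48.1 FPKM in all samples.

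**Figure D3:**
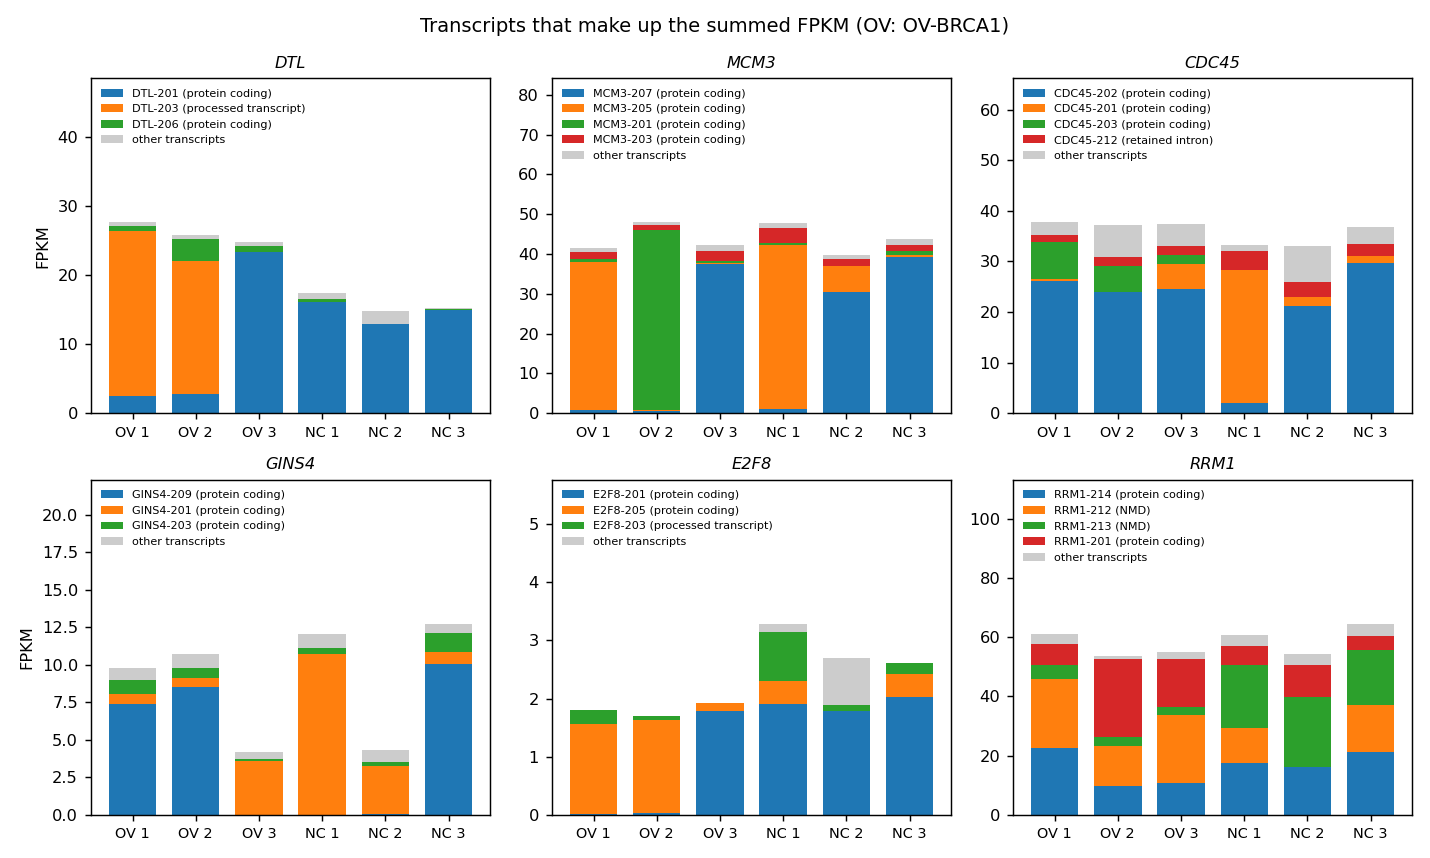
FPKM of the most abundant transcripts of DTL, MCM3, CDC45, GINS4, E2F8 and RRM1, stacked to the gene's sum in each of the 6 samples, with the smaller transcripts in grey. For DTL and MCM3 the leading transcript changes between replicates while the sum changes little within a group, and for GINS4 the sum changes too. The 6 genes were chosen after their values had been seen.

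The other genes of the pathway were 64 replication genes, all of which passed the filter. Of these, 12 were upregulated and 13 were downregulated (39.1%, beside 35.3% of genes tested), with a median log2 fold change of -0.02. SAMHD1, a hydrolase that breaks down the nucleotides made by the enzymes above, met both cut-offs of the study's criterion in this limma fit. The FPKM values of SAMHD1 were 43.7, 42.7 and 44.3 in the OV-BRCA1 group and 10.2, 9.60 and 10.2 in the NC group. Its log2 fold change was 2.02 (SE 0.05, limma adjusted p = 4.63e-06), larger than that of any member. By role, 3 of 14 other origin and licensing genes were higher and 4 were lower, 4 of 23 other fork genes were higher and 6 were lower, 2 of 8 other nucleotide genes moved each way, and 3 of 19 G1/S control genes were higher and 1 was lower.

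MCMBP, a chaperone of MCM subunits, rose by 0.43 (limma adjusted p = 0.00107) and TOP1, which relaxes supercoils ahead of the fork, by 0.40 (limma adjusted p = 0.00134). POLE3, a small subunit of DNA polymerase epsilon, rose by 0.47 (limma adjusted p = 0.00186), with values of 96.2, 96.9 and 90.6 against 70.3, 63.4 and 70.04, whereas POLE was lower. TIMELESS, a fork protection factor, had values of 12.8, 12.05 and 14.3 against 24.3, 25.4 and 25.1 (log2 fold change -0.88, limma adjusted p = 3.96e-04). Its binding partner TIPIN moved the other way, with values of 23.2, 20.0 and 23.5 against 14.4, 9.82 and 11.01 (log2 fold change 0.88, limma adjusted p = 0.00502), and was named after its values had been seen. RECQL4, a helicase needed for origin firing, fell by 0.64 (limma adjusted p = 5.87e-04). RBL2, a pocket protein that represses E2F targets in resting cells, had values of 14.9, 15.2 and 14.6 against 25.5, 24.4 and 25.4 (log2 fold change -0.71, limma adjusted p = 2.31e-04).

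TOP2A, which untangles replicated DNA and peaks in G2 and M, had FPKM values of 38.5, 40.3 and 38.3 in the OV-BRCA1 group and 70.4, 69.9 and 70.5 in the NC group (log2 fold change -0.83, limma adjusted p = 6.76e-05). Of 30 mitotic genes listed for comparison, 23 were lower (76.7%, beside 18.9% of genes tested) and 0 were higher by limma (beside 16.4%), with 24 lower and 0 higher at an unadjusted p below 0.05, and their median log2 fold change was -0.53. The members, with 10 higher and 11 lower and a median of 0.03, stand beside this as a description, since the difference between the lists was not tested. Both lists were chosen with earlier results of these data known. The promoters of the lists also held different letters. The CHR motif, TTTGAA or TTCGAA on both strands, is the element of G2 and M genes and stood in 20 of 25 mitotic promoters (80%), in 2 of 38 member promoters (5.3%) and in 10.7% of promoters of genes tested. The E2F motif stood in 12% of mitotic promoters and in 22.6% of the 53 promoters found for the other replication genes.

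**Figure D4:**
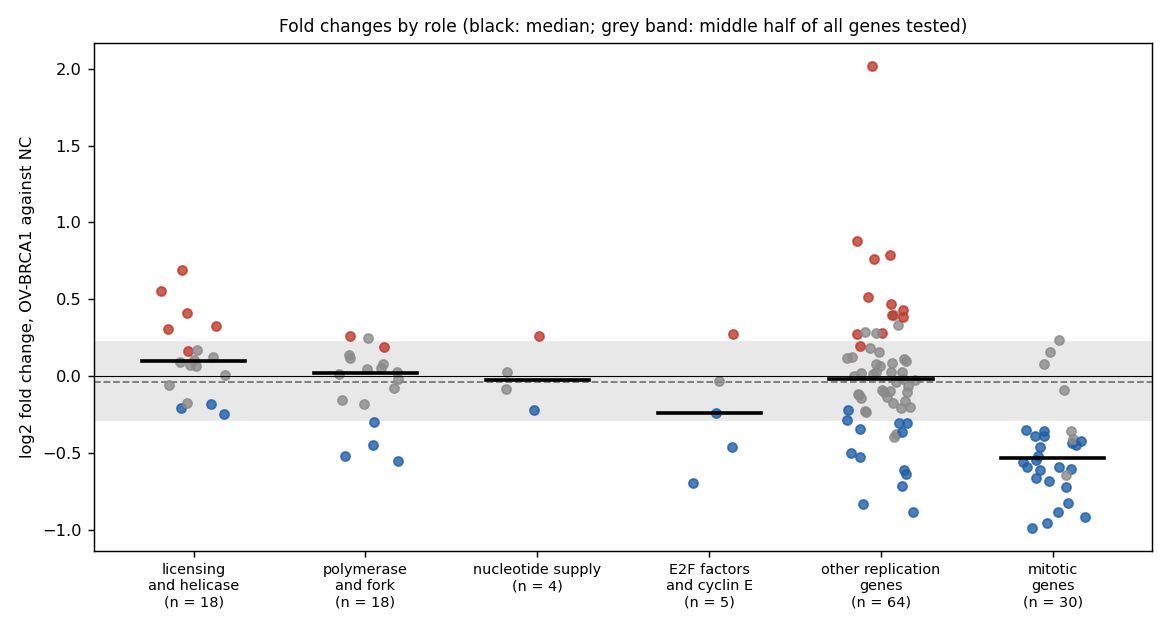
Log2 fold change of each gene by list (OV-BRCA1 against NC, n = 3 per group), with red for higher, blue for lower and grey for not called at an adjusted p of 0.05, a black line for the median, and a grey band and dashed line for the middle range and median of all 16321 genes tested. The 45 members, in the 4 role groups at the left, spread to both sides of 0, and 27 of the 30 mitotic genes lie below 0.

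**Figure D5:**
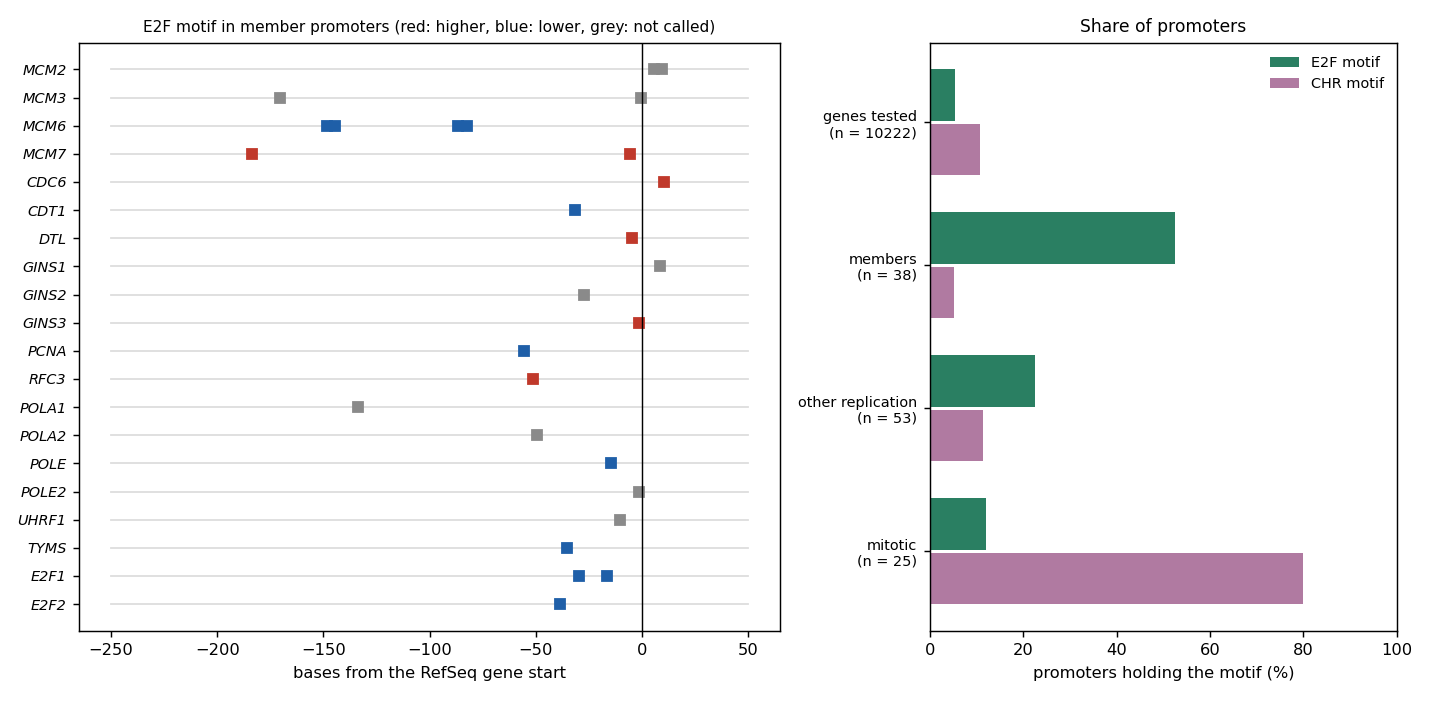
Left, positions of the E2F motif in bases from the RefSeq gene start for the 20 members that hold it, colored by call. Right, percent of promoters with the E2F or CHR motif for genes tested, members, other replication genes and mitotic genes. Matches of called members begin between positions -59 and 7 from the start, except those of MCM6 and the upstream match of MCM7.

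The calls rested on some samples more than on others. Of the 21 members called, 12 were called in every fit that left out a sample. Without NC sample 3 the counts were 5 higher and 7 lower, and without OV-BRCA1 sample 2 they were 6 higher and 7 lower. With the leading transcript in place of the sum 4 members were higher and 8 were lower. The share of all genes called was not worked out for these settings, so the counts describe the members alone. Among others, ORC1, GINS3, RFC3, RPA1, CCNE2 and E2F8 kept their direction and lost their call with the leading transcript (limma adjusted p = 0.0664 to 0.276), in addition to DTL, RRM2 and TYMS. With genes restricted to an FPKM of at least 1 in all samples, where 39.9% of 12607 genes passed the test, the counts stayed at 10 and 11.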

How the data were processed

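SiHa cells of 2 transfection groups were compared by mRNA sequencing, with 3 samples per group assigned from the labels. The authors normalized read counts to FPKM and deposited FPKM per transcript, and the submitters' processing notes name FastQC, HISAT2 and hg38. The annotation, the quantification tool and the use of strand are not given in the sources used here. Each of the 6 sample files held the same values as the series table, with 199167 transcripts. Gene names came from GENCODE release 29, which held 198868 of them, 98.7% at the same position.

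FPKM was summed per gene. Genes reaching an FPKM of 0.5 in 3 or more samples were tested with limma 3.58.1 (trend, not robust) in R 4.3.3 on log2(FPKM + 1) with Benjamini-Hochberg adjustment over 16321 genes, and a fold change on this scale understates that of low genes. Calls used an adjusted p below 0.05. The script was tested on simulated data. The authors' count test could not be repeated on FPKM. Depth was estimated from 14216 single-transcript genes 600 to 5000 bases long, in which 34.7% to 42.5% of low values fell within 0.1 of a whole fragment, so whole reads were not recovered, and the estimates cover counting error only.

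Samples' values were named for the transfected gene, for up to 6 members per role with the smallest adjusted p among those called, for the member per role with the largest adjusted p, for CDC45 and DTL, and for up to 8 other replication genes. CDT1, MCM7, MCM10, GINS4, TIPIN and the transcripts were named beyond this rule after their values were seen. The members and lists were chosen with earlier results of these data known. Alternatives were a pseudocount of 0.1, no filter, an FPKM of at least 1 in all samples, median of ratios and nuclear protein-coding scaling, the replicate block, each sample left out, the leading transcript, robust estimation and no trend. Summing transcripts by length was added after seeing the data. Promoters were those of RefSeq (GRCh38.p14). Python 3.11.15 with pandas 2.3.3 and matplotlib 3.10.9 was used.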

Additional observations from a re-analysis of the deposited data

How the results depend on the processing

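The count of upregulated members was 4 with the leading transcript and 6 with the replicate block, and with a sample left out it was 5 to 8, while the downregulated count was 7 to 9. With nuclear protein-coding scaling 7 were upregulated and 11 downregulated. For these settings the share of all genes called was not worked out. With the adjusted p alone, 21 members passed in place of 0. Upregulated other replication genes numbered 4 with the leading transcript. The median of the members was -0.0071 with the leading transcript, 0.0638 with the length-weighted sum, 0.0634 with median of ratios scaling, -0.0068 with nuclear protein-coding scaling, and -0.0112 to 0.0538 with a sample left out. The replicate numbers did not pair the samples (correlations of deviations between same-numbered samples -0.0244, 0.025 and 0.0136), and the replicate block kept 15 of the 21 member calls. Calls kept were 11 with the leading transcript, 12 to 16 with a sample left out and 17 to 21 under the remaining settings. With the leading transcript, DTL was -1.19, RRM2 -0.68, MCM3 -1.53, TK1 -0.0071 and TYMS -0.0389. Members near 0 changed sign. MCM3 was -0.0332 with nuclear scaling and -0.0607 to 0.0702 with a sample left out. FEN1 was -0.0262 with nuclear scaling and -0.0112 to 0.0467 with a sample left out. TK1 was -0.0125 with nuclear scaling and -0.0291 to 0.0632 with a sample left out. CCNE1 was 0.0929 with the length-weighted sum, 0.0063 with median of ratios scaling, and -0.09 to 0.0192 with a sample left out. The cause was not tested. Because the values are FPKM without counts, the depth behind each value is an estimate.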

Other observations

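Pseudogene copies of members carried almost no signal. The processed pseudogenes annotated for PCNA, RFC3, RFC5, FEN1, RPA2, RRM2 and TYMS had FPKM values of at most 0.196 in any sample, the highest being RRM2P2 in OV-BRCA1 sample 1. Members also overlap expressed genes on the opposite strand, for which the use of strand in counting was not stated. AP4M1 overlaps MCM7 and had FPKM values of 6.41, 6.83 and 5.42 in the OV-BRCA1 group and 9.31, 8.92 and 7.26 in the NC group, lower in all 3 OV-BRCA1 samples while MCM7 was higher. GSE1 overlaps GINS2 and had values of 17.0, 22.1 and 22.0 against 30.4, 29.1 and 29.6. UMAD1 overlaps RPA3 and had values of 3.37, 12.04 and 12.2 against 11.6, 4.01 and 12.6, with a single low sample in each group, whereas the values of RPA3 showed no such low sample.

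CDK2, the kinase that cyclin E activates, had FPKM values of 25.4, 32.4 and 74.2 in the OV-BRCA1 group and 97.2, 37.4 and 39.0 in the NC group, so a single high sample stood out in each group (log2 fold change -0.40, 95% interval -1.62 to 0.83). E2F5, an E2F factor that represses transcription with pocket proteins, had values of 2.90, 2.91 and 2.30 against 1.22, 1.15 and 1.05, higher in all 3 OV-BRCA1 samples (log2 fold change 0.79, limma adjusted p = 0.00208). The pseudocount of 1 shrinks this fold change, and the ratio of means of E2F5 was 2.37. When transcripts were summed by length its log2 fold change was 1.04 (limma adjusted p = 3.34e-04). CDC25A, the phosphatase that activates CDK2, had values of 11.9, 7.89 and 12.8 against 5.38, 6.09 and 6.22 (log2 fold change 0.76, limma adjusted p = 0.0175), and 3 of the 6 fits without a sample kept its call. LIG1, the ligase that joins Okazaki fragments, had values of 22.9, 25.7 and 26.1 against 39.5, 34.4 and 41.7 (log2 fold change -0.61, limma adjusted p = 0.00345). These genes were picked once their values were known, and no explanation was tested.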
